A study of Mus musculus with 6 samples.

Results

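The 33 genes described here encode the enzymes that make cholesterol and fatty acids from acetyl-CoA, together with the SREBP machinery that controls them. They were the rows whose symbol matched a fixed list, and all 33 were found among the 23204 genes of the count table. There were 18 sterol synthesis enzymes, the sterol carrier *Stard4*, 5 genes of SREBP control and 9 fatty acid enzymes. The RNA came from osteoclasts, the bone-resorbing giant cells, which had been made in culture from C57BL/6 mouse marrow. Cells that stuck to the dish after 2 days in M-CSF received RANKL, the cytokine that turns such precursors into osteoclasts, with more M-CSF. In 3 libraries the label is Tet2Rank–/–; Tet3aRank+/–, which is taken to mean loss of both *Tet2* alleles and of 1 *Tet3* allele, and the other 3 are wild type. Each genotype has 1 female and 2 male samples, but the columns do not show which. Ages are not given, nor is it said what Rank or the letter a means or in which cells the alleles are lost. In the columns' own numbering, libraries 2, 3 and 5 carry the mutant label and libraries 1, 4 and 6 the wild-type label.

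SREBPs are transcription factors made as precursors in the endoplasmic reticulum membrane. SCAP carries them to the Golgi for cleavage when membrane sterols are low, and INSIG proteins hold SCAP back when sterols are high. SREBP2, from *Srebf2*, chiefly drives the sterol genes, and SREBP1, from *Srebf1*, chiefly the fatty acid genes, which the oxysterol receptor LXR also induces. In osteoclasts the sterol pathway is known for farnesyl diphosphate synthase, from *Fdps*, the target of nitrogen-containing bisphosphonates, because its products are attached to the small GTPases that osteoclasts need.

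Library totals ran from 8794973 to 14267135 counts, and the 33 genes had between 38 and 2993 counts per library. *Tet2* stood at 58.2, 45.5 and 52.3 CPM (counts scaled to library size with TMM factors) in libraries 2, 3 and 5 labelled mutant and at 71.7, 80.9 and 79.3 CPM in wild-type libraries 1, 4 and 6. *Tet3* stood at 163, 141 and 156 CPM in the libraries labelled mutant and at 145, 121 and 127 CPM in wild-type libraries, so it was not lower, against what its label would give if transcripts were lost with the allele. Counts cover whole genes, and the genotype is therefore written as labelled. Column names of libraries 5 and 6 carry a second number and those of libraries 1 to 4 do not. The leading principal component, with 68.1% of the variance, set libraries 5 and 6 apart, so a fit with this column-name form as a term is given beside the fit on genotype alone. The sources used here do not explain the second number. All 10 osteoclast markers examined were detected in each library, at 11.7 CPM or more. In bulk samples like these, fewer cells of a type and less RNA per cell cannot be told apart.

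The promoter sequences of 6 members are shown because SREBPs bind sterol regulatory elements next to CCAAT boxes, which bind the factor NF-Y. Each is the 250 bases before the start of transcription, from RefSeq on GRCm38.p6 (mm10), read 5′ to 3′ on the gene's strand, and capitals mark matches to TCACNCCAC or CCAAT on either strand. The genes are *Hmgcs1* (chr13:119690101-119690350, plus strand), *Lss* (chr10:76531355-76531604, plus), *Nsdhl* (chrX:72918271-72918520, plus), *Mvk* (chr5:114444019-114444268, plus), *Ebp* (chrX:8193513-8193762, minus) and *Fasn* (chr11:120824548-120824797, minus). The genotypes did not overlap for *Hmgcs1*, *Lss* and *Nsdhl* and overlapped for *Mvk*, *Ebp* and *Fasn*.
Hmgcs1: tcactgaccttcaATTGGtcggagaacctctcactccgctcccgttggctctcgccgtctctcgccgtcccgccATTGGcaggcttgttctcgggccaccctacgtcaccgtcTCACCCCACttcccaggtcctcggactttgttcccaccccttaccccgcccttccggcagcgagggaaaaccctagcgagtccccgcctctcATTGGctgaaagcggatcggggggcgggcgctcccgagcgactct
Lss: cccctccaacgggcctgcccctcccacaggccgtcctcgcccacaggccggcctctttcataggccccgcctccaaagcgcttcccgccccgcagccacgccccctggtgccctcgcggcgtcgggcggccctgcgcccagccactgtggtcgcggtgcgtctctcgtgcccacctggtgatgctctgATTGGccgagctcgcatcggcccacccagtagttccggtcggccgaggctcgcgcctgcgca
Nsdhl: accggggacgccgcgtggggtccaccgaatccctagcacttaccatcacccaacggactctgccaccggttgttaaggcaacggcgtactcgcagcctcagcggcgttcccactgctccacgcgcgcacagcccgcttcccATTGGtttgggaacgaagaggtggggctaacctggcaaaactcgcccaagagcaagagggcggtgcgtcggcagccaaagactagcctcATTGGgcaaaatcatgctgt
Mvk: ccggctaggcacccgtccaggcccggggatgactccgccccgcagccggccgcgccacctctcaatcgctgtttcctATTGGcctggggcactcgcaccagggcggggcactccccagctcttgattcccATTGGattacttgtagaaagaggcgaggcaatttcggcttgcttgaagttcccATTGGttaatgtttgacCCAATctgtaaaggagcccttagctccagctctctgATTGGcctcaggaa
Ebp: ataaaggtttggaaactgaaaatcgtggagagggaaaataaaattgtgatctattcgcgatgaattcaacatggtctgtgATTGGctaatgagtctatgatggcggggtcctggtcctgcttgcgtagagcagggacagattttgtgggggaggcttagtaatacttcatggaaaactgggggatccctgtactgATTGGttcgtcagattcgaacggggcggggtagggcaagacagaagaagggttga
Fasn: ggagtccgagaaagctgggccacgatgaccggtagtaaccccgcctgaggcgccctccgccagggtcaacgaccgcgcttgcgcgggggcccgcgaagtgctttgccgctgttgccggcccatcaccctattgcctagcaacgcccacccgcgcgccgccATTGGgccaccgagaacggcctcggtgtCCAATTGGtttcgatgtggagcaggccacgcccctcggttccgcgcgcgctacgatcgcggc

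Of the members, 26 genes matched the promoter table, with 34 windows between them, and *Stard4*, *Fads1*, *Fdft1*, *Sqle*, *Fdps*, *Scd2* and *Scd1* did not. The letters CCAAT or their complement lay in the 250 bases of 14 of 15 sterol enzyme genes, of 2 of 6 fatty acid enzyme genes (*Elovl5* and *Fasn*) and of 4 of 5 control genes, against 37.5% of all 27025 genes in the table. The *Acaca* window, counted among those without a match, begins at 84195188 on chromosome 11. It lies inside the gene, which begins at 84129672 on the plus strand, so the sequence before the gene's 5′ end was not searched. The stricter sterol element TCACNCCAC was found in 1 member, *Hmgcs1*, where it begins 137 bases before the start and CCAAT boxes begin 237, 176 and 45 bases before that start. That element lay in 1.05% of all 32851 windows. CCAAT was thus in promoters of sterol genes whose CPM did not overlap between the genotypes and of those that overlapped, such as *Mvk* with 5 matches and *Ebp* with 2. In *Fasn* a pair of the matches overlap each other. The E-box CACGTG was in 6 of the 34 member windows (17.6%), and in 6.02% of all windows. The GC box GGGCGG was in 24 of the 34 (70.6%), and in 32.7% of all windows. Each motif was searched on both strands, and GGGCGG can share end letters with ATTGG, the complement of CCAAT. A match is a description of letters and not a binding site, and no match says only that these letters are not in this window.

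Of the 18 sterol enzymes, 9 had lower CPM in every library labelled mutant than in any wild-type library, at 61.5% to 74.0% of wild type, while the fatty acid enzymes were mixed, with *Scd2* at 47.7% of wild type and *Fads1* at 170% of it. In the fit with the column-name term, *Hmgcs1*, *Idi1*, *Lss*, *Srebf2* and *Scd2* fell and *Fads1* rose. On genotype alone 0 of 33 passed an adjusted p of 0.05 in edgeR's quasi-likelihood test, where 0.0712% of the 14040 genes tested did (0.0499% higher and 0.0214% lower). At an unadjusted p under 0.05 in the same test 12 members were lower (36.4% of them, against 12.4% of all genes) and 1 was higher (3.03%, against 7.19%), and 19.6% of all genes lay in either direction. The same 13 genes were those whose 3 libraries labelled mutant did not overlap the 3 wild-type libraries, 12 lower against 16.9% of all genes and 1 higher against 9.91%. With the column-name term 5 members were lower (15.2%, against 5.6% of all genes) and 1 higher (3.03%, against 3.08%), where 8.68% of all genes passed. DESeq2 on genotype alone called 7 lower (21.2%, against 6.44% of all genes with an adjusted p) and 1 higher (3.03%, against 5.58%). In all, 29 of 33 members had a log2 fold change below 0, against 53.2% of all genes, with a median of -0.15 against -0.03. With DESeq2 size factors in place of TMM, *Acat2*, *Ebp* and *Dhcr7* stood just above 0.

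**Figure D1:**
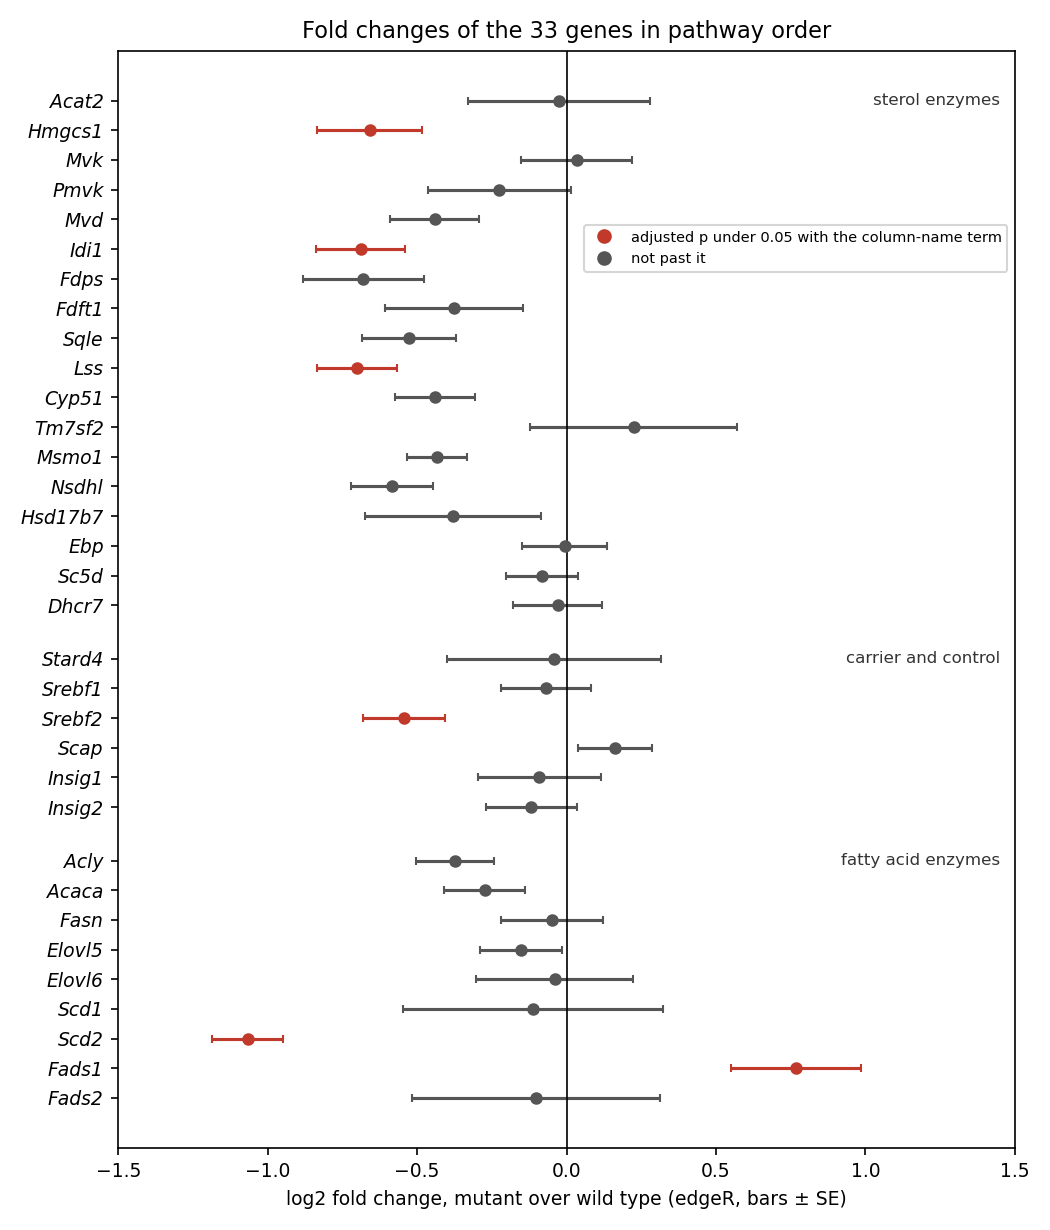
Log2 fold change of each gene in libraries labelled mutant over wild type (x axis, edgeR fit on genotype alone) with its SE as bars, in pathway order down the page; red marks an adjusted p under 0.05 in the fit with the column-name term. *Scd2* lies lowest at -1.07 and *Fads1* highest at 0.77, and the last steps of the sterol route, *Ebp*, *Sc5d* and *Dhcr7*, lie between -0.08 and -0.01.

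In the mevalonate part of the route, which builds farnesyl diphosphate, 4 of 7 genes had libraries that did not overlap. All of these were lower in libraries labelled mutant, where 16.9% of all genes were lower without overlap. *Hmgcs1* (ENSMUSG00000093930, chromosome 13, 119690379 to 119708260, mm10), the cytosolic HMG-CoA synthase, had 68.1, 68.5 and 79.8 CPM in libraries 2, 3 and 5 labelled mutant, against 105, 93.6 and 143 CPM in wild-type libraries 1, 4 and 6. All 3 libraries labelled mutant were below the lowest wild-type library, and library 6 was the highest. On the log2 scale it stood at -0.66 ± 0.177 (SE), with an adjusted p of 0.127 in edgeR and of 0.0232 once the column-name term was added. An antisense gene, *Gm48342*, covers 12.1% of its exon bases. *Idi1* (ENSMUSG00000058258, chromosome 13, 8885501 to 8892451), the isopentenyl diphosphate isomerase, had 33.9, 28.0 and 31.8 CPM in libraries labelled mutant, against 53.0, 41.6 and 56.7 CPM in wild-type libraries. These groups were also apart, at -0.69 ± 0.149 on the log2 scale (SE; adjusted p 0.0947 in edgeR and 0.0376 with the term), although 23.6% of its 75-base windows, the read length, occur in other transcripts. *Fdps*, the bisphosphonate target, had 12.3, 8.76 and 12.0 CPM in libraries labelled mutant and 16.8, 15.8 and 20.4 CPM in wild-type libraries. Its log2 fold change of -0.68 passed neither edgeR fit (SE 0.202; adjusted p 0.146, and 0.0773 with the term), and 26.7% of its exon bases are shared on the same strand with the annotated gene *Gm43738*. *Mvd*, the diphosphomevalonate decarboxylase, had 17.8, 15.5 and 14.5 CPM in libraries labelled mutant, against 24.1, 20.2 and 20.6 CPM in wild-type libraries. The kinases before it overlapped between the genotypes: *Mvk* averaged 12.1 ± 1.30 CPM in libraries labelled mutant and 11.8 ± 1.46 CPM in wild-type libraries (SD, n = 3 each). *Pmvk* averaged 15.5 ± 0.730 CPM in libraries labelled mutant and 18.1 ± 5.47 CPM in wild-type libraries. The thiolase gene *Acat2* averaged 6.23 ± 1.52 CPM in libraries labelled mutant and 6.35 ± 1.01 CPM in wild-type libraries (SD, n = 3 each), and 33.9% of its 75-base windows also occur in transcripts of other genes, chiefly *Acat3*. Over the 7 genes together, CPM summed to 166, 152 and 175 in the libraries labelled mutant, all below the wild-type sums of 229.8, 207 and 282.

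At the branch to sterols, *Lss* and *Sqle* were apart between the genotypes and *Fdft1* was not. *Lss* and *Sqle* were lower without overlap in libraries labelled mutant, as were 16.9% of all genes tested. *Lss* (ENSMUSG00000033105, chromosome 10, 76531588 to 76557138), the lanosterol synthase that closes the sterol rings, had 19.1, 19.7 and 20.8 CPM in libraries labelled mutant, against 33.4, 27.7 and 35.8 CPM in wild-type libraries. The 3 libraries labelled mutant lay within 2 CPM of each other and all under the lowest wild-type library. Of the sterol enzymes it had the most negative log2 fold change, -0.70 ± 0.134 (SE; adjusted p 0.0809 in edgeR and 0.0281 with the term). The squalene epoxidase gene *Sqle* had 20.03, 16.8 and 20.8 CPM in libraries labelled mutant, against 23.9, 27.4 and 31.7 CPM in wild-type libraries (edgeR adjusted p = 0.146, and 0.0681 with the term). *Fdft1*, the squalene synthase, had 22.1, 12.9 and 14.1 CPM in libraries labelled mutant and 20.3, 23.5 and 20.04 CPM in wild-type libraries. Library 2 lay among the wild-type libraries. Its exons share 774 bases (18.3%) with the opposite strand gene *Ctsb*, the protease cathepsin B, and no source used here states the strand setting of the counting, which leaves its value uncertain.

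Between lanosterol and cholesterol, *Cyp51*, *Msmo1* and *Nsdhl*, which take part in removing methyl groups from the sterol, were apart. The other 5 enzymes overlapped, among them *Tm7sf2* and *Hsd17b7*, which also act in that stretch. Of all genes tested, 16.9% were lower without overlap in libraries labelled mutant. *Msmo1*, the methyl sterol oxidase, had 49.1, 46.8 and 49.1 CPM in libraries labelled mutant, against 66.5, 58.9 and 70.5 CPM in wild-type libraries. *Nsdhl*, the dehydrogenase that follows it, had 20.4, 17.8 and 17.8 CPM in libraries labelled mutant, against 31.4, 25.3 and 27.3 CPM in wild-type libraries. Lanosterol demethylase, from *Cyp51*, had 31.9, 26.3 and 31.4 CPM in libraries labelled mutant, against 44.6, 35.7 and 41.4 CPM in wild-type libraries. Each had a log2 fold change between -0.58 and -0.43, and with the column-name term the edgeR adjusted p was 0.0501 for *Msmo1*, 0.0546 for *Nsdhl* and 0.103 for *Cyp51*. The last steps stood near wild type: *Ebp*, the sterol isomerase, at 99.5% of it, *Sc5d*, the sterol desaturase, at 94.4%, and *Dhcr7*, the last reductase, at 97.9%. Their SEs on the log2 scale were 0.142, 0.121 and 0.149, so differences of that size would not be resolved. *Tm7sf2*, a sterol reductase that shares 12.1% of its exon bases with *Vps51*, averaged 6.19 ± 1.51 CPM in libraries labelled mutant and 5.29 ± 1.65 CPM in wild-type libraries (SD, n = 3 each). *Hsd17b7*, the keto reductase, averaged 8.91 ± 2.32 CPM in libraries labelled mutant and 11.6 ± 2.77 CPM in wild-type libraries. These 8 genes from *Cyp51* on summed to 202, 183 and 205 CPM in the libraries labelled mutant, against 249, 217 and 245 CPM in the wild type. That is 82.8% of wild type, where the mevalonate part stood at 68.4% and the 3 genes from *Fdft1* to *Lss* at 68.2%. The difference between the stretches was not tested.

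**Figure D2:**
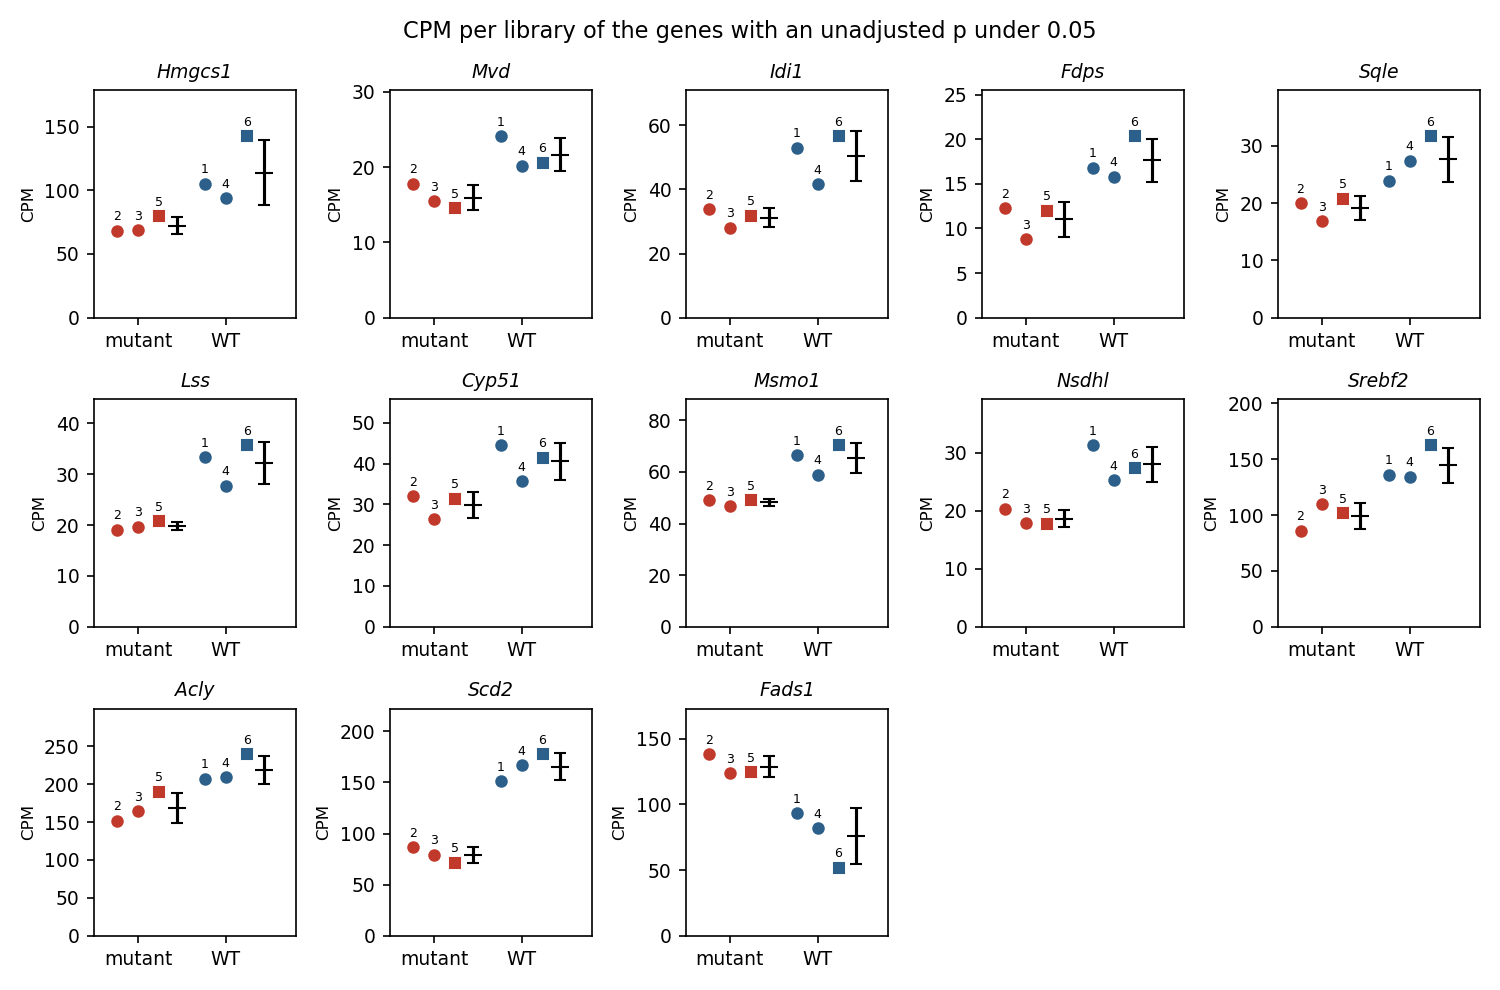
CPM (y axis, from 0) of the 13 genes with an unadjusted p under 0.05 in each library, labelled mutant left of wild type (WT); numbers are libraries, squares are libraries 5 and 6, and black bars are mean ± SD over 3 libraries. In each panel all 3 libraries of one genotype lie on the same side of the other 3, with *Fads1* the gene that was higher in libraries labelled mutant.

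Among the control genes *Srebf2* was lower and its partners were not apart. *Srebf2* (ENSMUSG00000022463, chromosome 15, 82147181 to 82205379) had 86.0, 109.5 and 102 CPM in libraries 2, 3 and 5 labelled mutant, against 136, 134 and 163 CPM in wild-type libraries 1, 4 and 6. Library 2 was the lowest and library 6 the highest, with a gap between the genotypes. On the log2 scale it stood at -0.54 ± 0.137 (SE; adjusted p 0.113 in edgeR and 0.0468 with the term). *Srebf1* had 71.7, 86.2 and 65.2 CPM in libraries labelled mutant and 66.3, 82.3 and 85.1 CPM in wild-type libraries, which overlapped. Its log2 fold change was -0.07 (SE 0.150), and its isoforms were not separated by these counts. *Scap*, the escort of both precursors, averaged 55.2 ± 5.89 CPM in libraries labelled mutant and 49.4 ± 4.95 CPM in wild-type libraries (SD, n = 3 each). An annotated gene on the opposite strand, *5830462I19Rik*, covers 13.2% of the exon bases of *Scap*. The retention genes *Insig1* and *Insig2* also overlapped. *Insig1*, itself an SREBP target, averaged 58.9 ± 16.8 CPM in libraries labelled mutant and 62.9 ± 5.38 CPM in wild-type libraries, and *Insig2* averaged 28.0 ± 2.50 CPM in libraries labelled mutant and 30.4 ± 5.01 CPM in wild-type libraries (SD, n = 3 each). *Insig1* reached 78.1 CPM in library 2, above all wild-type libraries. The sterol carrier *Stard4*, also an SREBP2 target, varied most of the sterol genes, with 39.2, 18.3 and 41.5 CPM in libraries labelled mutant and 47.0, 27.5 and 27.9 CPM in wild-type libraries. Adjusted p-values of *Scap*, *Insig1*, *Insig2* and *Stard4* were 0.560 or more in edgeR.

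The fatty acid enzymes held the most negative and the most positive fold change of all members. *Scd2* (ENSMUSG00000025203, chromosome 19, 44293674 to 44306864), a stearoyl-CoA desaturase that makes oleate and palmitoleate, had 86.4, 79.2 and 71.3 CPM in libraries 2, 3 and 5 labelled mutant, against 151, 167 and 178 CPM in wild-type libraries 1, 4 and 6. No library labelled mutant came near the lowest wild-type library. Its log2 fold change of -1.07 (SE 0.120) had an adjusted p of 0.0544 in edgeR, of 0.0135 with the column-name term and of 0.0315 with no filter on low counts. With each library left out in turn it ran from -1.13 to -1.0003, and the edgeR adjusted p from 0.107 to 0.212. *Fads1* (ENSMUSG00000010663, chromosome 19, 10182888 to 10196877), a desaturase of polyunsaturated fatty acid synthesis, went the other way, with 138, 124 and 125 CPM in libraries labelled mutant, against 93.3, 82.0 and 51.9 CPM in wild-type libraries. The libraries labelled mutant were close together, and library 6 was the lowest of the wild type. On the log2 scale it stood at 0.77 ± 0.217 (SE; adjusted p 0.136 in edgeR and 0.0337 with the term). It was 0.58 among libraries 1 to 4 and 1.26 between libraries 5 and 6, where a single pair gives no test. *Acly*, which makes cytosolic acetyl-CoA for both routes, had 152, 164 and 190 CPM in libraries labelled mutant, against 207, 209 and 240 CPM in wild-type libraries (-0.37 ± 0.130 on the log2 scale, SE; adjusted p 0.185 in edgeR and 0.0654 with the term).

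The enzymes that build the fatty acid chain overlapped between the genotypes. *Fasn*, the fatty acid synthase, averaged 54.2 ± 2.41 CPM in libraries labelled mutant and 56.0 ± 13.02 CPM in wild-type libraries (SD, n = 3 each). *Acaca*, the acetyl-CoA carboxylase, averaged 37.7 ± 3.48 CPM in libraries labelled mutant and 45.7 ± 6.08 CPM in wild-type libraries. Of the 75-base windows of *Acaca*, 26.8% also occur in transcripts of other genes. The elongase genes *Elovl5* and *Elovl6* stood at 90.0% and 97.5% of wild type. *Scd1* averaged 15.8 ± 8.31 CPM in libraries labelled mutant and 17.1 ± 4.86 CPM in wild-type libraries (SD, n = 3 each). *Fads2*, the partner desaturase of *Fads1*, averaged 8.605 ± 1.35 CPM in libraries labelled mutant and 9.21 ± 4.96 CPM in wild-type libraries. Their edgeR adjusted p-values were 0.332 for *Acaca* and 0.641 or more for the other 5. Per kilobase of annotated exon, *Scd2* averaged 14.5 ± 1.38 CPM in libraries labelled mutant and 30.3 ± 2.45 CPM in wild-type libraries (SD, n = 3 each). On that scale *Scd1* averaged 3.23 ± 1.70 CPM in libraries labelled mutant and 3.49 ± 0.993 CPM in wild-type libraries. The ratio of *Scd2* to *Scd1* per kilobase was 10.4, 4.46 and 2.66 in libraries 2, 3 and 5, against 8.80, 11.3 and 7.07 in libraries 1, 4 and 6. It overlapped between the genotypes, with *Scd1* the more variable gene of the pair. Reads can mostly be told apart, since 1.78% of the 75-base windows of *Scd2* occur in other genes, chiefly *Scd1*. None of those of *Fads1* do.

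**Figure D3:**
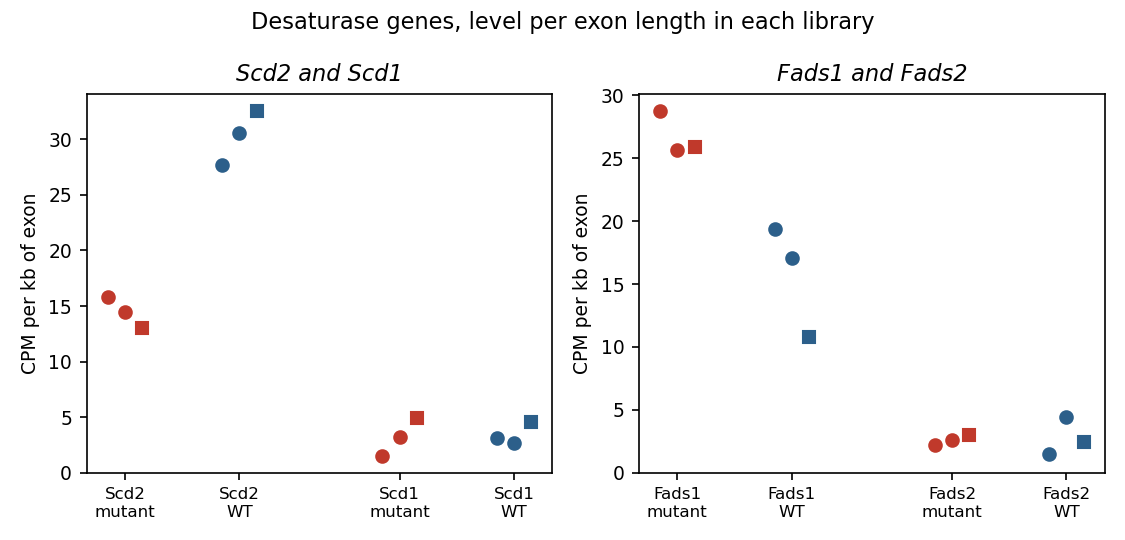
CPM per kilobase of exon (y axis, from 0) of *Scd2* and *Scd1* and of *Fads1* and *Fads2*, 1 point per library, red for libraries labelled mutant and blue for wild type (WT), squares for libraries 5 and 6. *Scd2* lies between 13.1 and 15.8 in libraries labelled mutant and between 27.7 and 32.6 in wild-type libraries, and *Fads1* between 25.7 and 28.8 against 10.8 to 19.4.

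Set side by side, the median log2 fold change was -0.41 for the 18 sterol enzymes (range -0.70 to 0.22, 16 below 0) and -0.11 for the 9 fatty acid enzymes (range -1.07 to 0.77, 8 below 0), against -0.03 for all genes tested. As mean log2 CPM with each gene centred at 0, the sterol enzymes stood at -0.10, -0.29 and -0.11 in libraries 2, 3 and 5 labelled mutant, against 0.16, 0.10 and 0.25 in wild-type libraries 1, 4 and 6. These did not overlap. On the same scale the fatty acid enzymes stood at -0.19, -0.08 and 0.06 in libraries labelled mutant, against -0.07, 0.23 and 0.06 in wild-type libraries, and overlapped. The sterol level minus the fatty acid level was 0.10, -0.21 and -0.17 in libraries labelled mutant and 0.23, -0.14 and 0.19 in wild-type libraries. Library 2 lay above library 4, so the contrast of the arms itself overlapped between the genotypes. In summed CPM, however, the fatty acid enzymes did not overlap. These sums were 556, 543 and 585 in libraries labelled mutant, against 636, 686 and 666 in wild-type libraries. The summed CPM of the fatty acid enzymes was 84.7% of wild type, and that of the sterol enzymes was 74.5%. Without *Scd2* the fatty acid sum stood at 97.0%, without *Fads1* at 73.6%, and without *Scd2* and *Fads1* at 83.8%.

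The mean levels of the osteoclast and macrophage marker lists did not overlap between the genotypes, as for the sterol enzymes. Gene by gene, 7 of 10 osteoclast markers were apart and lower in libraries labelled mutant, 7 of 10 macrophage markers were apart and higher, and 9 of 18 sterol enzymes were apart and lower. Of all genes tested, 16.9% were apart and lower and 9.91% were apart and higher. On the centred scale the 10 osteoclast markers stood at -1.94, -0.55 and 0.06 in libraries 2, 3 and 5, against 0.55, 0.31 and 1.58 in libraries 1, 4 and 6. The 10 macrophage markers stood at 0.56, 0.38 and 0.58 in libraries labelled mutant, against -0.09, -0.54 and -0.89 in wild-type libraries. Library 6, highest in osteoclast markers, was also highest in sterol enzymes. Among the libraries labelled mutant, library 2 had the lowest osteoclast markers, whereas library 3 had the lowest sterol level. In summed CPM the osteoclast list ran from 2966 to 12373 in libraries labelled mutant and from 15143 to 39699 in wild-type libraries, and the macrophage list from 8334 to 8818 in libraries labelled mutant and from 4749 to 6390 in wild-type libraries. Dendritic cell markers summed to 1569 to 5858 CPM in libraries labelled mutant and 763 to 1930 CPM in wild-type libraries. Neutrophil markers summed to 434 to 1346 CPM in libraries labelled mutant and 247 to 884 CPM in wild-type libraries, and stromal markers to 794 to 3631 CPM in libraries labelled mutant and 951 to 2681 CPM in wild-type libraries. Lymphocyte markers summed to at most 8.04 CPM. The part of these cell types in the results was not tested. Of the adipocyte markers, chosen because fat cells make much *Scd1* and *Fasn*, *Fabp4*, which macrophages also express, was tested, and *Adipoq*, *Plin1*, *Cidec*, *Cfd* and *Retn* were at or near 0, at 0.310 CPM or less in every library.

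**Figure D4:**
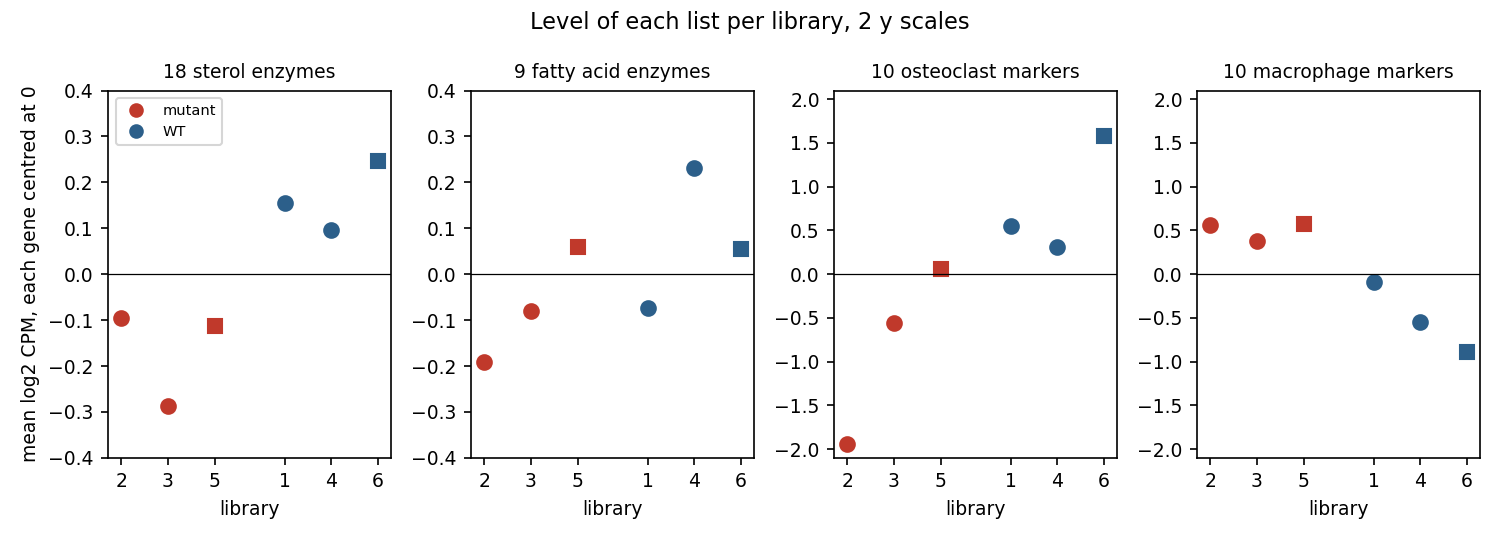
Mean log2 CPM (y axis, each gene centred at 0 over the 6 libraries) of 4 gene lists in each library, red for libraries labelled mutant and blue for wild type (WT), squares for libraries 5 and 6; the scales of the 2 enzyme panels and the 2 marker panels differ. Sterol enzymes lie below 0 in libraries 2, 3 and 5 and above 0 in libraries 1, 4 and 6, whereas fatty acid enzymes overlap.

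Per kilobase of exon *Acly* led both genotypes, with 32.0 ± 3.71 CPM in libraries labelled mutant and 41.4 ± 3.496 CPM in wild-type libraries (SD, n = 3 each). In libraries labelled mutant *Fads1* came next at 26.8 ± 1.73 CPM and *Scd2* ranked 7 at 14.5 ± 1.38 CPM, while in wild-type libraries *Scd2* was next to *Acly* at 30.3 ± 2.45 CPM and *Fads1* ranked 8 at 15.7 ± 4.44 (SD, n = 3 each). In the wild type the neighbours *Hmgcs1*, *Insig1*, *Srebf2* and *Ebp* (24.8 ± 5.58, 20.3 ± 1.74, 20.1 ± 2.22 and 18.3 ± 2.12 CPM per kilobase) had overlapping spreads (SD, n = 3 each). *Tm7sf2* was last in both, at 1.41 ± 0.344 CPM per kilobase in libraries labelled mutant and 1.20 ± 0.376 in wild-type libraries (SD, n = 3 each). Lengths are the union of all annotated exons, which understates genes with long rare exons. The spread differed between genes: the coefficient of variation over 3 libraries ran from 2.79% (*Msmo1*) to 52.6% (*Scd1*) in libraries labelled mutant and from 6.74% (*Sc5d*) to 53.9% (*Fads2*) in wild-type libraries.

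Genes around the pathway were taken from 3 wider lists, and 0 passed the edgeR test on genotype alone. Of 16 other sterol genes 5 had an unadjusted p under 0.05 (4 lower and 1 higher, where 12.4% of all genes were lower and 7.19% higher). With the column-name term 4 were lower and 1 higher, where 5.6% of all genes were lower and 3.08% higher. Those that fell included *Acat1*, the mitochondrial thiolase, at 94.1 ± 12.0 CPM in libraries labelled mutant and 154 ± 34.5 CPM in wild-type libraries (SD, n = 3 each; edgeR adjusted p = 0.0400 with the term), and *Nus1*, a subunit of the enzyme that makes dolichol, at 142 ± 26.9 CPM in libraries labelled mutant and 226.9 ± 55.3 CPM in wild-type libraries (edgeR adjusted p = 0.0473 with the term). The gene that rose was *Por*, which passes electrons to squalene epoxidase and lanosterol demethylase. It had 229, 205 and 251 CPM in libraries labelled mutant, against 138, 140.2 and 152 CPM in wild-type libraries. The groups were apart, at 0.67 ± 0.118 on the log2 scale (SE; adjusted p 0.0764 in edgeR and 0.0204 with the term). The list's median log2 fold change was -0.33. Of 26 other fatty acid genes 24 were tested, and 5 had an unadjusted p under 0.05. All 5 were lower, where 12.4% of all genes were lower and 7.19% higher. With the term *Acsl1*, an acyl-CoA synthetase that activates long-chain fatty acids, was the 1 that fell, where 5.6% of all genes did. *Acsl1* had 54.8, 62.2 and 66.2 CPM in libraries labelled mutant, against 128, 119 and 112 CPM in wild-type libraries (-0.97 ± 0.112 on the log2 scale, SE; adjusted p 0.0544 in edgeR and 0.0136 with the term). Of 17 other SREBP control genes 16 were tested, 7 had an unadjusted p under 0.05 (3 higher and 4 lower), where 19.6% of all genes did. With the term 0 passed in edgeR, where 8.68% of all genes did, and DESeq2 on genotype alone called 2 higher, where 5.58% of all genes were. The transcription factor gene *Sp1*, among the most abundant of these, stood at 129 ± 7.46 CPM in libraries labelled mutant and 135 ± 9.53 CPM in wild-type libraries (SD, n = 3 each). *Nr1h3*, which encodes LXR alpha and was named after its values were seen, had 17.4, 21.3 and 22.6 CPM in libraries labelled mutant, against 13.5, 13.8 and 12.1 CPM in wild-type libraries (adjusted p 0.113 in edgeR, and 0.0703 with the term).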

How the data were processed

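Per the labels' protocols, the libraries were stranded mRNA libraries with single-end reads of 75 bases. The submitters' processing notes name the build mm10 and the tools Bowtie2 2.2.3, TopHat2 2.0.13 and SAMtools 0.1.19, and no source used here names the counting program or its strand setting. The authors deposited raw counts per Ensembl gene. Of 23264 rows, 60 repeats were dropped. Column names give the genotype but neither replicate nor sex, so neither was used, and p-values measure only the spread between these libraries, which differed by more than sampling noise. The quasi-likelihood test of edgeR 4.0.16 in R 4.3.3 was run with TMM factors on the 14040 genes that filterByExpr kept, with Benjamini-Hochberg adjustment over all of them and a threshold of 0.05. Each SE was obtained by dividing the log2 fold change by the root of the F statistic. DESeq2 1.42.0 was an alternative, and the test was tried on simulated counts. Log2 CPM used a prior count of 2. Exon overlaps and 75-base windows came from GENCODE M21, in which 99.8% of identifiers were found. The column-name term, the members and the lists were chosen with earlier results of these data known. Members with an unadjusted p under 0.05 or no overlap are given per library, and list genes where they passed with or without the term, or else the 2 most abundant. A few genes of the wider lists that this rule picks are not reported here; counts include them.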

Additional observations from a re-analysis of the deposited data

How the results depend on the processing

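No paired analysis was possible because the column names carry no replicate number. Of all genes, edgeR called 10 on genotype alone, 81 with no filter on low counts and 1219 with the column-name form as a term, DESeq2 called 1426, and leaving out a library in turn left 0 to 3. Of the 33 members, 0 passed on genotype alone or with a library left out, 1 (*Scd2*) with no filter, 6 with the term and 8 in DESeq2; the cause was not tested. The median log2 fold change of sterol minus fatty acid enzymes was -0.29, -0.47 to -0.19 with a library left out, -0.19 in libraries 1 to 4 and -0.60 between libraries 5 and 6. Signs turned only for members whose genotypes overlapped, though not for *Fdft1*, *Hsd17b7*, *Tm7sf2*, *Sc5d*, *Scap* and *Acaca* among them. The other 13 kept their sign. Those 13 were the members without overlap, whose sign leaving out a library could hardly turn, so this is no separate result. With DESeq2 size factors in edgeR the log2 fold change was 0.0088 for *Acat2*, 0.027 for *Ebp* and 0.0048 for *Dhcr7*, and in DESeq2 0.016, 0.028 and 0.0066 for the same genes. Leaving out a library gave -0.14 to 0.16 for *Acat2*, -0.062 to 0.16 for *Mvk*, -0.43 to 0.015 for *Pmvk*, -0.11 to 0.078 for *Ebp*, -0.11 to 0.087 for *Dhcr7*, -0.24 to 0.25 for *Stard4*, -0.315 to 0.045 for *Insig1*, -0.20 to 0.040 for *Insig2*, -0.19 to 0.014 for *Srebf1*, -0.56 to 0.26 for *Scd1*, -0.18 to 0.18 for *Fasn*, -0.21 to 0.0037 for *Elovl5*, -0.22 to 0.25 for *Elovl6* and -0.40 to 0.43 for *Fads2*. With 3 libraries per genotype and a common coefficient of variation of 40.9%, or 23.5% with the term, small changes were not resolved.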

Other observations

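A pair of fatty acid genes differed more by column-name form than by genotype. *Scd1* had 24.04 CPM in library 5 and 22.5 CPM in library 6, against 7.42, 15.9, 15.4 and 13.2 CPM in libraries 2, 3, 1 and 4. *Acss2*, an acetyl-CoA synthetase from the list of other fatty acid genes, ran the other way, with 8.34 CPM in library 5 and 10.1 CPM in library 6, against 22.3, 18.03, 20.9 and 19.7 CPM in libraries 2, 3, 1 and 4. These genes were picked by eye from the values, and no test was run.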
